A study of Mus musculus with 2 samples.

Results

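The cells described here were bone marrow cells that carried at least 3 UMIs of Mmp8 (neutrophil collagenase), fewer than 100 UMIs of Retnlg per 10000 UMIs of the cell, and fewer than 3 UMIs of the B cell gene Cd79a. They were selected on these measured values, so the levels of Mmp8, Retnlg and Cd79a in them, and every gene that follows those genes from cell to cell, are given as a description and not as a test. The rule took 250 of 2478 cells, 128 of 1309 in the Col1a1fspKO library and 122 of 1169 in the WT library. The cells had a median of 3968.5 and 4135 UMIs in those libraries, and 912 and 944.5 detected genes. Most of them were neutrophils that still carried abundant lactoferrin (Ltf) transcripts. They were set between neutrophils with Ltf but less Mmp8 and neutrophils with abundant Retnlg. However, 28 of the 250 cells had almost no S100a8 or S100a9 and carried monocyte markers. Results are therefore given with and without such cells.

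The sc-RNA-seq data came from mice in which the Fsp1 (S100a4) promoter drives Cre and both Col1a1 alleles are floxed (Fsp1-Cre;Col1a1flox/flox, named Col1a1fspKO), and from WT littermates that carried Col1a1flox/flox without Cre, so the floxed alleles were shared by both groups. Mice were 2 months old, marrow was flushed from femur and tibia, live cells were sorted, and cells of 2 mice were pooled into 1 library per genotype. Each genotype had a single library, so the genotypes could be set side by side but not tested, and all intervals below cover counting error only. Cells with active Fsp1-Cre are not marked in these data. Col1a1 itself had 3 UMIs in the Col1a1fspKO library, 1 of them in a cell described here, and 0 in the WT library, so the targeted gene could not serve as a check of the labels in these hematopoietic cells. The libraries held 8647722 and 8624469 UMIs, with medians of 4954 and 5534 per cell and no cell under 2540, and 2 barcodes occurred in both libraries, of which 1 was a WT cell described here.

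Neutrophils build their granules in a fixed order. Primary (azurophil) granule proteins such as myeloperoxidase are made at the promyelocyte stage, secondary (specific) granule proteins such as lactoferrin and cathelicidin (Camp) in myelocytes and metamyelocytes, and tertiary (gelatinase) granule proteins such as Mmp9 in band cells. Cell division stops around the metamyelocyte stage. Receptors for chemoattractants and the genes of the circulating cell follow last, and in mouse marrow Retnlg is known as a gene of the most mature neutrophils. The neutrophils before and after the cells of interest were taken as neighbors in this order. Ltf-high neutrophils had at least 20 UMIs of Ltf per 10000 with Mmp8 under 3 UMIs and Retnlg under 100 per 10000, and Retnlg-high neutrophils had at least 100 UMIs of Retnlg per 10000.

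The regions upstream of the 3 genes that place these cells in the order are shown because Mmp8 and Retnlg define the cells and Ltf defines the neighbors before them. Each is the 250 bases before the annotated start in RefSeq (build GRCm38.p6), on the plus strand, 5′ to 3′. Capitals mark TTGCNNAA, a C/EBP-type motif, and GAGGAAGT, a PU.1-type motif, found on either strand; the 2 motifs did not overlap. TTGCNNAA was present in the same window of 9.56% of 32851 promoters and GAGGAAGT in 2.44%.
Mmp8, chr9:7558179-7558428: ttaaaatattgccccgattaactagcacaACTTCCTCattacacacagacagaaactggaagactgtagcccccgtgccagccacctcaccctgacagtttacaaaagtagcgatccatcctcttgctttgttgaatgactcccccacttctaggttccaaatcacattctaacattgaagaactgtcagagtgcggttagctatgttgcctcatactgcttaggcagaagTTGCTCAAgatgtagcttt
Ltf, chr9:111019042-111019291: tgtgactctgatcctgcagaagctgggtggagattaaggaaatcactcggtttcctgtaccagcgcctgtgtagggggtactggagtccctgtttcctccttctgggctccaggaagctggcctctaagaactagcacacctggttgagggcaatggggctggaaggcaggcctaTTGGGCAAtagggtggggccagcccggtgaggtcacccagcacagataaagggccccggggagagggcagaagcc
Retnlg, chr16:48872358-48872607: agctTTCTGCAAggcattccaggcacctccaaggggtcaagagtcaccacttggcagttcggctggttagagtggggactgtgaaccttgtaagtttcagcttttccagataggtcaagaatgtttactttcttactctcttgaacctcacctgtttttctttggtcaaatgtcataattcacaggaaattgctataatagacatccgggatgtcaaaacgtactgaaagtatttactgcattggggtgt
Each of the 3 windows held TTGCNNAA once, beginning 19 bases before the start in Mmp8, 75 in Ltf and 246 in Retnlg, and of the 3 only the Mmp8 window held GAGGAAGT. C/EBP and PU.1 proteins are known regulators of granulocyte genes. The matches describe letters in these windows and were not tested for binding.

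The label of maturing neutrophils was checked against S100a8 and S100a9, the calcium-binding proteins that make up much of the neutrophil cytosol. In 110 of 128 Col1a1fspKO cells and 103 of 122 WT cells the 2 genes together made up at least 1000 of 10000 UMIs, with medians of 3629 and 3704. These cells are called S100-high below, a limit chosen after the values were seen. Ly6g, the surface antigen used to sort mouse neutrophils, was detected in 109 of the 110 and 99 of the 103 S100-high cells. Mmp9, Thbs1 and Fpr2 from the marker list were also present, in 106, 31 and 73 of the 110 Col1a1fspKO cells and in 97, 50 and 72 of the 103 WT cells. The S100-high cells thus carried all 5 markers, although Thbs1 was seen in a minority of cells.

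The data went against the label in the remaining cells. In 13 Col1a1fspKO and 15 WT cells S100a8 and S100a9 stayed below 100 per 10000, with medians of 24.8 and 21.1. Each of these 28 S100-low cells carried between 7 and 46 UMIs of the 6 monocyte markers Csf1r, Ccr2, Klf4, F13a1, Ms4a6c and Cx3cr1. The median in S100-high cells was 0. However, 1 Col1a1fspKO and 2 WT S100-high cells had at least 5 such UMIs, with highest counts of 14 and 23. The S100 limit thus did not remove every cell with monocyte markers. Ly6g had 1 UMI in all S100-low cells of the Col1a1fspKO library and 0 in those of WT, and Mmp9 likewise had 1 and 0. F13a1, the A subunit of coagulation factor XIII, stood at 810.5 and 989.9 CPM (UMIs per 1000000 UMIs of the summed cells) in S100-low cells, at 530.3 and 605 CPM in the other S100-low cells of the series with at least 5 monocyte marker UMIs, and at 4.58 and 20.3 CPM in S100-high cells. Ribosomal protein transcripts made up 29.4% and 27.3% of UMIs in S100-low cells against 4.55% and 5.23% in S100-high cells. The S100-low cells were deeper, with median totals of 5867 and 6384 UMIs against 3667 and 3810, and their median Mmp8 was 3 UMIs, the minimum of the rule.

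The other 9 cells lay between the limits and were of several kinds. In the Col1a1fspKO library they included cells of 24177 and 18823 UMIs with 8611 and 2149 globin UMIs, a cell of 22282 UMIs with 174 UMIs of primary granule genes, and a cell with 50 UMIs of Cd74 and 26 of Apoe. In the WT library they included a cell of 7552 UMIs with 4085 globin UMIs, and the other 3 had between 5 and 18 monocyte marker UMIs. Near the upper limit, 1 Col1a1fspKO and 5 WT cells had S100a8 plus S100a9 between 1000 and 2000 per 10000, and the 2 WT cells with the most globin among S100-high cells carried 3607 and 3508 globin UMIs each against a highest value of 107 in the Col1a1fspKO library. Whether the 9 cells were mixtures of 2 cells was not tested.

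**Figure D1:**
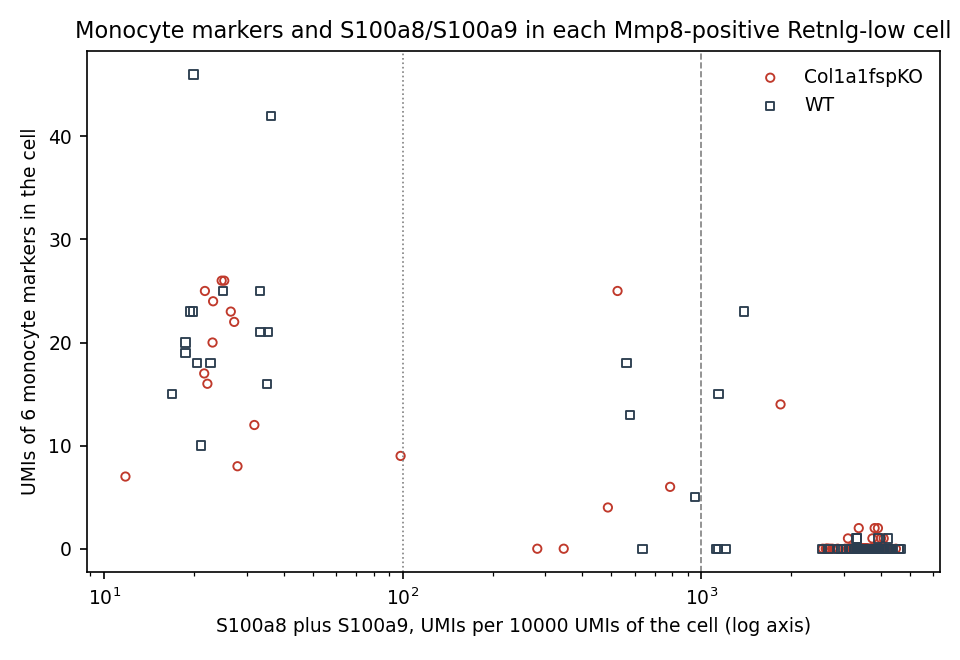
Each point is a cell that met the rule, with S100a8 plus S100a9 per 10000 UMIs on a log axis and the summed UMIs of the 6 monocyte markers on the other axis; circles are Col1a1fspKO and squares WT, and the lines mark 100 and 1000 per 10000. Most cells lie to the right of the dashed line with few or no monocyte marker UMIs, and a separate group of 13 Col1a1fspKO and 15 WT cells lies to the left of the dotted line with 7 to 46 such UMIs.

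The limits of the rule cut through a continuous range of cells. Mmp8 was at exactly 3 UMIs in 14 Col1a1fspKO and 17 WT cells, of which 7 and 9 were S100-high. Just outside, 48 and 42 cells with low Retnlg had 2 UMIs of Mmp8, and 11 and 13 cells with enough Mmp8 had Retnlg between 100 and 120 per 10000. Cells with Retnlg of 100 to 120 had Mmp9 at 951 and 977 CPM, against the 1044 and 1164 CPM of cells with 80 to 100. A higher minimum left fewer S100-low cells. At 5 UMIs of Mmp8, 5 of 98 Col1a1fspKO and 1 of 90 WT cells were S100-low. With each cell thinned to 2500 UMIs before the rule was applied, 4 of 93 and 5 of 93 were.

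The cells made up 9.78% of the Col1a1fspKO library (exact 95% interval 8.22 to 11.5) and 10.4% of the WT library (8.74 to 12.3). The difference of -0.658 percentage points had a Newcombe interval of -3.06 to 1.71 that held 0. For S100-high cells the shares were 8.4% and 8.81%, a difference of -0.408 points (-2.65 to 1.8). The neighbors in the order differed more between the libraries, at 13.6% (11.8 to 15.6) against 7.61% (6.16 to 9.29) for Retnlg-high and 16.3% (14.3 to 18.4) against 19.9% (17.7 to 22.3) for Ltf-high neutrophils. Each library was a single pool, so variation between mice cannot be told apart from genotype.

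The position of the cells in neutrophil maturation was described by summing UMIs over the S100-high cells of each library and setting the levels against S100-high cells of the neighboring sets, 212 and 233 Ltf-high and 175 and 89 Retnlg-high neutrophils in the Col1a1fspKO and WT libraries. Ratios are given with 95% counting intervals, tested genes are those with at least 50 UMIs over the cells compared, and a gene is called different where the ratio was at least 2, or at most 0.5, in each library separately. No p-value stands behind a call. Over Ltf-high neutrophils 2.22% of 4010 tested genes were called higher and 10.8% lower, and over Retnlg-high neutrophils 1.26% of 2227 genes were called higher and 2.83% lower. With all cells that met the rule the shares changed to 4.8% of 4377 genes higher and 3.77% lower than Ltf-high, and to 10.8% of 2752 higher and 2.29% lower than Retnlg-high neutrophils. Of the UMIs of F13a1, Fn1 (fibronectin), Ms4a6c and Ctss (cathepsin S), all called higher than in Ltf-high neutrophils, between 88.5% and 97.2% lay in cells that were not S100-high. The cell sets were chosen on Mmp8, Retnlg and Ltf, so the contrasts below describe the chosen sets.

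Primary granule genes were nearly silent. Their 6 genes together stood at 18.3 and 33.8 CPM in S100-high cells of the Col1a1fspKO and WT libraries, against 178 and 226 CPM in S100-high Ltf-high neutrophils. Of the 4 with enough UMIs, 3 were called lower than in Ltf-high neutrophils and none higher. Ms4a3, a gene of granulocyte and monocyte progenitors, had 1 UMI in S100-high cells of the Col1a1fspKO library and 5 in those of WT, against 120 and 188 in Ltf-high neutrophils. With all cells that met the rule the Col1a1fspKO value was 332 CPM, with the cell of 174 such UMIs among the cells.

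Cell-cycle genes were also low. Of 14 cell-cycle genes tested, 13 were called lower than in Ltf-high neutrophils and none higher, with median log2 ratios of -3.31 in the Col1a1fspKO and -2.79 in the WT library beside -0.19 and -0.17 over all genes. Top2a (topoisomerase II alpha) was at 113, 11.4 and 11.8 CPM in the Col1a1fspKO library and 137, 13.5 and 6.11 CPM in the WT library in Ltf-high, S100-high Mmp8-positive and Retnlg-high cells. Stmn1 (stathmin, which destabilizes microtubules) was 0.0675 (0.0322 to 0.125) times the Ltf-high level in the Col1a1fspKO library and 0.0754 (0.0419 to 0.125) times in the WT library. Hmgb2, a chromatin protein that stays abundant beyond division, was lower by less, at 0.517 (0.476 to 0.561) and 0.425 (0.392 to 0.462) times. At least 5 UMIs over Mki67, Top2a, Ube2c and Birc5 were present in 1 and 2 S100-high cells, compared with 46 of 212 and 70 of 233 S100-high Ltf-high neutrophils, whose median depth was higher at 4966 and 5855 UMIs.

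Genes of the stage before, named preneutrophil genes here, were partly retained. Over Ltf-high neutrophils 2 of 6 tested genes were called lower, and over Retnlg-high neutrophils 1 of 4 was called higher. Fcnb (ficolin B) was at 18.3 and 63.1 CPM in S100-high cells against 339.7 and 481 CPM in Ltf-high neutrophils. Chil3, a chitinase-like secreted protein, lay between its neighbors, at 3752, 1929.5 and 623 CPM in the Col1a1fspKO library and 4457, 2415 and 547 CPM in the WT library. Cebpe, the transcription factor of secondary granule genes, was at 932, 536 and 224 CPM in the Col1a1fspKO library and 987, 590.3 and 348 CPM in the WT library. For Chil3 and Cebpe the levels decreased in the same order in both libraries, with no overlap of counting intervals between sets.

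Secondary granule genes were still abundant. The 8 tested genes had median log2 ratios of 0.091 and 0.11 over Ltf-high neutrophils, where 1 was called lower, and of 0.79 and 0.59 over Retnlg-high neutrophils, where Camp, Ngp and Orm1 were called higher. Ltf was higher than in either neighbor, at 4310.2, 6528 and 2874 CPM in the Col1a1fspKO library and 4479.7, 6613 and 3642 CPM in the WT library in Ltf-high, S100-high Mmp8-positive and Retnlg-high cells, although the Ltf-high set was chosen for Ltf. Its ratio over Ltf-high neutrophils was 1.51 (1.45 to 1.59) in the Col1a1fspKO and 1.48 (1.41 to 1.54) in the WT library. Every S100-high cell had Ltf, with a lowest value of 1 and 9 UMIs, a median of 24.5 and 28, and a highest of 66 and 65. Camp, the precursor of cathelicidin, was instead below its Ltf-high level at 0.824 (0.812 to 0.836) and 0.848 (0.836 to 0.86) times, and 2.14 (2.1 to 2.19) and 2.02 (1.97 to 2.07) times its Retnlg-high level. Ngp (neutrophilic granule protein) followed the order of Camp, and Lcn2 (lipocalin 2, which binds siderophores) was level with Ltf-high neutrophils at 1.01 (0.979 to 1.04) and 1.02 (0.986 to 1.05) times. Orm1 (orosomucoid, an acute-phase protein) was called lower than in Ltf-high and higher than in Retnlg-high neutrophils, with 29 and 51 UMIs in S100-high cells.

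Among the genes listed as tertiary granule genes, Mmp9 distinguished the cells most clearly from Ltf-high neutrophils. The list also held Mmp8, whose product is usually assigned to secondary granules. Of its 5 tested genes 3 were called higher than in Ltf-high neutrophils, 1 of them Mmp8 by construction. None of the 5 was called different from Retnlg-high neutrophils. Mmp9 (gelatinase B) was at 159, 863 and 1186 CPM in the Col1a1fspKO library and 132, 748 and 1136 CPM in the WT library, a ratio over Ltf-high neutrophils of 5.44 (4.57 to 6.49) and 5.66 (4.73 to 6.77). After thinning to 2500 UMIs, Mmp9 was detected in 87.3% and 87.4% of S100-high cells, in 28.2% and 28.8% of Ltf-high neutrophils, and in 5% and 3.67% of cells with Cd79a, which should lack it. Before thinning the shares in S100-high cells were 96.4% and 94.2%. Adam8, a membrane metalloprotease, was the other gene called higher than in Ltf-high neutrophils, with 24 and 15 UMIs in S100-high cells and ratios of 2.54 (1.4 to 4.57) and 2.35 (1.13 to 4.73), and Mmp25 had too few UMIs to be tested, 8 in each library.

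Of the 5 genes given as markers of these cells, 4 were called higher than in Ltf-high neutrophils and none was called different from Retnlg-high neutrophils. Thbs1 (thrombospondin 1, an adhesive matrix protein) was at 20.8, 109.9 and 86.1 CPM in the Col1a1fspKO library and 28.1, 182 and 131 CPM in the WT library, and its ratio over Retnlg-high neutrophils was 1.28 (0.843 to 1.93) and 1.39 (0.949 to 2.06). Fpr2, a formyl peptide receptor, was 2.13 (1.7 to 2.66) and 2.25 (1.8 to 2.81) times the Ltf-high level and 1.15 (0.912 to 1.44) and 0.912 (0.704 to 1.18) times the Retnlg-high level. Ly6g was at 969, 2108 and 1829 CPM in the Col1a1fspKO library and 511, 978 and 757 CPM in the WT library and was highest in the Mmp8-positive set in both libraries, by 1.15 (1.05 to 1.26) and 1.29 (1.1 to 1.52) times over Retnlg-high neutrophils. Mmp8 was used by the rule. Of the other markers, Mmp9, Thbs1 and Fpr2 passed 2-fold over Ltf-high neutrophils in both libraries, whereas Ly6g did so in the Col1a1fspKO library alone, at 2.18 (2 to 2.37) times against 1.91 (1.7 to 2.15) times in WT, and was not called.

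**Figure D2:**
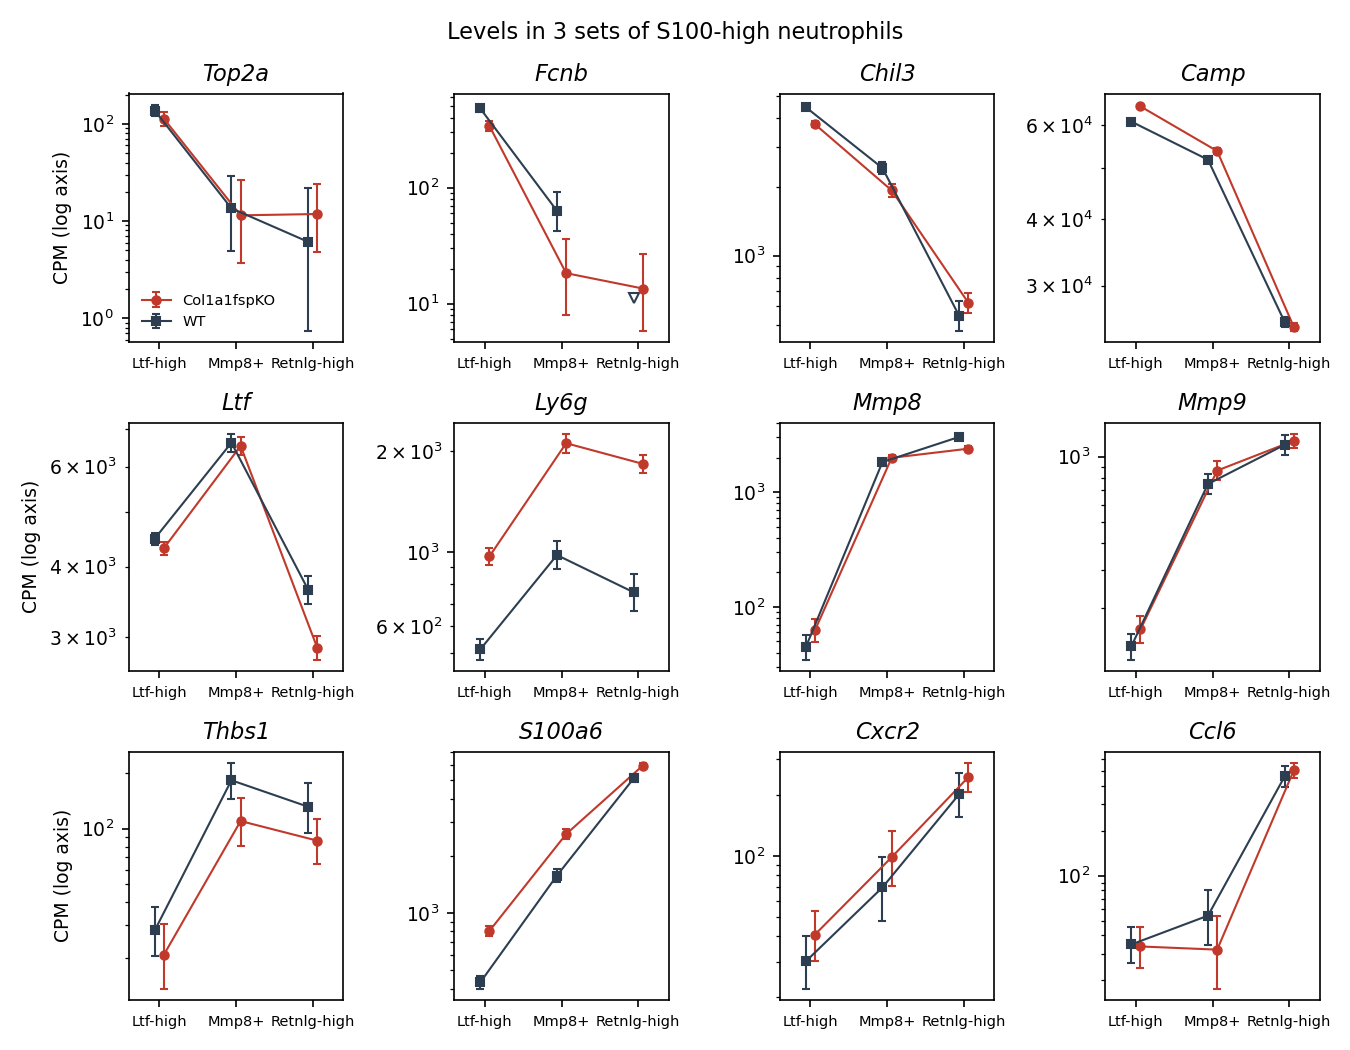
Summed levels in CPM on log axes of 12 genes in S100-high cells of the Ltf-high, Mmp8-positive Retnlg-low (Mmp8+) and Retnlg-high sets, in the Col1a1fspKO (circles) and WT (squares) libraries; bars are 95% counting intervals, and the open triangle is the upper limit where no UMI was found. Ltf and Ly6g are highest in the Mmp8-positive set in both libraries, Mmp9 and Thbs1 are above their Ltf-high levels, and Ccl6 is near its Ltf-high level.

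Receptors for chemoattractants were between their neighbors or close to the later stage. Of 8 tested receptors Fpr1, Fpr2 and Cxcr2 were called higher than in Ltf-high neutrophils, and Cxcr2 was called lower than in Retnlg-high neutrophils. Fpr1, the high-affinity formyl peptide receptor, had 25 and 22 UMIs in S100-high cells and was 8.93 (3.9 to 22.9) and 15.1 (5.6 to 51.2) times its Ltf-high level. Cxcr2, the chemokine receptor for release from marrow, was at 40.9, 98.4 and 245 CPM in the Col1a1fspKO library and 30.1, 69.8 and 202 CPM in the WT library. Cxcr4, the receptor that retains neutrophils in marrow, had 40 and 41 UMIs, and its levels were 60.9, 91.6 and 106 CPM in the Col1a1fspKO library and 78.6, 92.4 and 137 CPM in the WT library, not called different in either contrast. Among adhesion genes 1 of 10 tested, Thbs1, was called higher than in Ltf-high neutrophils. Selplg, the ligand of P-selectin, was 3.04 (1.99 to 4.65) times the Ltf-high level in the Col1a1fspKO library and 1.72 (1.05 to 2.76) times in WT.

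The 6 tested subunits of the NADPH oxidase, the enzyme of the respiratory burst, and the 13 tested actin and cytoskeleton genes gave no call in either contrast. Median log2 ratios of the oxidase subunits over Ltf-high neutrophils were 0.16 and 0.14. Cybb, the catalytic subunit, was 2.11 (1.83 to 2.44) times its Retnlg-high level in the Col1a1fspKO library and 1.71 (1.48 to 2) times in WT, so it passed the fold in the Col1a1fspKO library alone. Of the transcription factors tested, Klf2 and Mxd1 were called higher than in Ltf-high neutrophils. Mxd1, a repressor of Myc targets, was 2.3 (1.71 to 3.08) and 2.14 (1.58 to 2.88) times the Ltf-high level. Against Retnlg-high neutrophils 2 of 7 tested transcription factors were called lower and none higher. Cebpb was among them, at 0.455 (0.327 to 0.625) and 0.352 (0.236 to 0.516) times.

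Genes of the most mature neutrophils were divided. Against Retnlg-high neutrophils 8 of 13 tested genes were called lower, Retnlg among them by construction, with median log2 ratios of -2.74 and -1.85. The stefin A genes, which encode inhibitors of cysteine proteases and share near-identical sequence so that reads may be split among them, are given by their counts. Stfa1 had 18 and 3 UMIs in S100-high cells against 163 and 8 in Retnlg-high neutrophils. Stfa2l1 had 1 UMI in S100-high cells of the Col1a1fspKO library and 2 in those of WT against 144 and 17 in Retnlg-high neutrophils. Gm5483 of the same family had 0 and 27 UMIs against 531 and 129 in Retnlg-high and 9 and 3 in Ltf-high neutrophils. The chemokine Ccl6 was at 33.6, 32 and 508 CPM in the Col1a1fspKO library and 34.7, 54.1 and 461 CPM in the WT library, and of its UMIs in S100-high cells there were 14 and 24. Srgn (serglycin, the proteoglycan that packs granule contents) had 6 and 5 UMIs against 122 and 52 in Retnlg-high neutrophils, and the lectin receptor Clec4d had 2 and 1 against 73 and 29. Cyp4f18, which inactivates leukotriene B4, had 4 and 3 against 96 and 31.

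Other genes of maturity were already intermediate. S100a6 was at 805, 2602 and 5973 CPM in the Col1a1fspKO library and 431, 1575 and 5108 CPM in the WT library, which is 3.23 (2.97 to 3.52) and 3.65 (3.28 to 4.07) times the Ltf-high level and 0.436 (0.407 to 0.466) and 0.308 (0.282 to 0.337) times the Retnlg-high level. Slpi, an inhibitor of neutrophil elastase, was at 393, 996 and 1817 CPM in the Col1a1fspKO library and 321, 743 and 1716 CPM in the WT library. Il1rn, the interleukin-1 receptor antagonist, had 39 and 25 UMIs and was 5.06 (2.93 to 8.97) and 3.19 (1.77 to 5.7) times the Ltf-high level. Timp2, an inhibitor of metalloproteases, was 4.24 (2.71 to 6.71) and 7.06 (4.04 to 12.7) times the Ltf-high level and 0.486 (0.347 to 0.672) and 0.445 (0.294 to 0.665) times the Retnlg-high level. S100a6, Slpi and Timp2 thus had counting intervals apart from both neighbors in each library. Ccl6, Srgn and Stfa1 were called lower than in the Retnlg-high set and not called different from the Ltf-high set. Stfa2l1, Gm5483, Clec4d and Cyp4f18 had too few UMIs to be tested against the Ltf-high set.

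Genes higher than in Retnlg-high neutrophils, other than the granule genes above, included Lta4h, which makes leukotriene B4, and the metalloprotease Zmpste24. Lta4h had 55 and 75 UMIs in S100-high cells and was 3.55 (2.11 to 6.18) and 3.46 (2 to 6.36) times the Retnlg-high level. Zmpste24, which processes prelamin A, had 64 and 91 UMIs and was 3.95 (2.4 to 6.73) and 6.72 (3.49 to 14.5) times. Over Ltf-high neutrophils, Cd55 and Tpm4 were among the genes with the highest ratios. Cd55, which limits complement on the cell surface, had 17 and 23 UMIs and was 6.94 (2.73 to 19.8) and 7.2 (3.37 to 16.4) times. Tpm4, a tropomyosin, was 6.98 (3.95 to 12.8) and 6.31 (2.99 to 14) times.

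Further groups were small or gave few calls. Of the interferon-stimulated genes, 5 had enough UMIs over Ltf-high neutrophils, and Ifi27l2a alone was called, higher at 2.52 (2.04 to 3.11) and 2.12 (1.65 to 2.71) times and lower than in Retnlg-high neutrophils at 0.442 (0.37 to 0.526) and 0.371 (0.291 to 0.47) times. At a limit of 2000 per 10000 for S100a8 plus S100a9 in all sets, its ratio over Ltf-high neutrophils was 3.87 (3.03 to 4.95) in the Col1a1fspKO and 1.51 (1.05 to 2.13) in the WT library, on 164 and 48 UMIs, so the call was lost. Of the other called genes of the lists and of the highest and lowest ratios, none lost its call at that limit, except that Elane over Ltf-high and Cdk2 and Ebf1 over Retnlg-high neutrophils then had too few UMIs to be tested. Calls gained at that limit were Eef1d and Rpl10a, lower than in Ltf-high neutrophils, and, against Retnlg-high neutrophils, Anp32b and the glycolytic enzyme Hk2, higher, and Cd300lb and the interferon-stimulated gene Ifitm2, lower. Ifitm6, the most abundant of the list by UMIs with 1711 and 1583, was not called in either contrast. None of the 5 Fc receptor genes and adaptors and none of the 12 glycolytic enzymes was called over Ltf-high neutrophils, nor were any over Retnlg-high neutrophils. Csf3r, the receptor for G-CSF that drives neutrophil production, was called lower than in Retnlg-high neutrophils at 0.482 (0.312 to 0.729) and 0.383 (0.231 to 0.621) times, with 32 and 27 UMIs. Of receptors for pathogens, Clec4e was called higher than in Ltf-high neutrophils and Clec4e and Clec4d lower than in Retnlg-high neutrophils. Pglyrp1, a secreted peptidoglycan-binding protein of granules, differed by less than 2-fold between the sets, at 2409, 2742 and 3410.1 CPM in the Col1a1fspKO library and 2509, 3012 and 4006 CPM in the WT library. The Bcl2 family, with 2 tested genes in each contrast, gave no call.

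Markers of other cell types were few in the S100-high cells. Summed levels in the Col1a1fspKO and WT libraries were 54.9 and 94.6 CPM for 6 monocyte, 34.3 and 38.3 for 5 B cell, 22.9 and 2.25 for 5 T and NK cell, 6.87 and 15.8 for 5 macrophage, and 11.4 and 18 for 4 basophil and eosinophil markers. Both megakaryocyte markers, Pf4 and Itga2b, were at 0 in both libraries. Globin and other red cell precursor markers were the exception at 12950.5 and 26446 CPM, of which the WT value included the 2 globin-rich cells described above. They stood at 11972 and 10160.1 CPM in S100-high Ltf-high neutrophils and at 12703 and 21697 CPM in cells with Cd79a. Such a level was thus not particular to neutrophils. In all cells that met the rule the monocyte markers stood at 501 and 735 CPM and the red cell precursor markers at 30066 and 29527 CPM. Their part in the results for all cells that met the rule was not tested.

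Ribosomal protein transcripts, looked at after their values were seen, decreased in the same order. The 94 genes together made up 7.55%, 4.55% and 4.01% of UMIs in Ltf-high, S100-high Mmp8-positive and Retnlg-high cells of the Col1a1fspKO library, and 6.51%, 5.23% and 4.4% in those of WT. The cells themselves overlapped, with 10th to 90th percentiles of 3.13 to 6.1% in the Mmp8-positive and 4.18 to 9.22% in the Ltf-high set of the Col1a1fspKO library. Median UMIs per cell, 4966, 3667 and 3149 in the Col1a1fspKO library and 5855, 3810 and 3505 in WT, decreased alongside.

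The S100-high cells varied among themselves along Retnlg. They were divided at 10 and 30 UMIs of Retnlg per 10000, giving 26, 25 and 59 cells in the Col1a1fspKO library and 46, 18 and 39 in WT. Chil3 was at 2536, 1824 and 1677 CPM from the lowest to the highest bin in the Col1a1fspKO library and at 2751, 3049.7 and 1585 CPM in WT, a highest over lowest ratio of 0.661 (0.566 to 0.773) and 0.576 (0.493 to 0.671). Cebpe had ratios of 0.568 (0.425 to 0.761) and 0.611 (0.447 to 0.828), Camp of 0.818 (0.794 to 0.843) and 0.851 (0.826 to 0.877), and Orm1 of 0.278 (0.101 to 0.711) and 0.143 (0.0372 to 0.397). Fcnb had ratios of 0.0696 (0.00154 to 0.541) and 1.05 (0.39 to 2.71). Hmgb2 had 0.654 (0.551 to 0.777) and 1.03 (0.865 to 1.22), so both were lower in the Col1a1fspKO library alone. Chil3, Cebpe, Camp and Orm1, of earlier stages, were lower in cells with more Retnlg in both libraries.

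Several genes of later stages were instead higher in cells with more Retnlg, but not all. Stfa1 had a highest over lowest ratio of 0.0375 (0.000881 to 0.249) in the Col1a1fspKO library. Il1rn had ratios of 0.674 (0.312 to 1.5) in the Col1a1fspKO and 2.17 (0.876 to 5.69) in the WT library. S100a6 was at 1504, 2336 and 3246 CPM in the Col1a1fspKO library and 1163, 1736 and 2059 CPM in WT, with ratios of 2.16 (1.82 to 2.57) and 1.77 (1.49 to 2.1). Mmp9 had ratios of 1.49 (1.14 to 1.95) and 1.88 (1.47 to 2.41), and Slpi of 1.5 (1.17 to 1.93) and 1.97 (1.54 to 2.53). Mmp8, whose minimum the rule set, still had ratios of 1.52 (1.27 to 1.83) and 1.52 (1.3 to 1.77). Ltf was flat, with 6506, 6624 and 6499.7 CPM in the Col1a1fspKO and 6391, 7354 and 6499 CPM in the WT library and ratios of 0.999 (0.914 to 1.09) and 1.02 (0.935 to 1.11). Actb, the cytoplasmic actin, had opposite directions in the libraries, with ratios of 1.15 (1.07 to 1.25) and 0.903 (0.845 to 0.965). With all cells that met the rule, the S100-low cells fell in the lowest bin and the summed secondary granule genes had log2 ratios of 0.089 and 0.17 for the highest over the lowest bin, against -0.28 and -0.18 in S100-high cells, so the direction turned. The middle WT bin had 18 cells, and the comparisons above use the outer bins. With cells thinned to 2500 UMIs, the ratios named here for Camp, Chil3, Cebpe, Orm1, S100a6, Mmp8, Mmp9 and Slpi kept their directions in both libraries, although Orm1 then had no UMI in the highest WT bin.

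**Figure D3:**
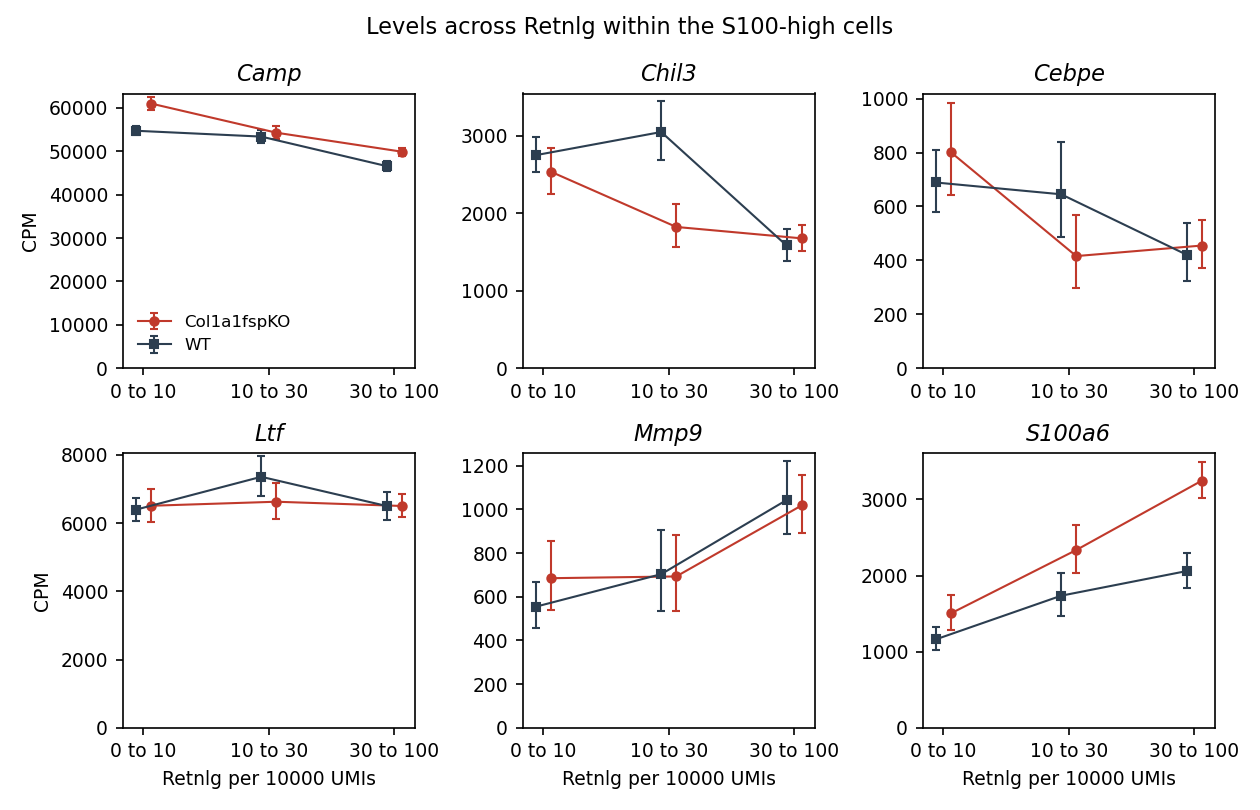
Summed levels in CPM of 6 genes in S100-high cells grouped by Retnlg per 10000 UMIs, with 95% counting intervals; circles are Col1a1fspKO and squares WT. Camp, Chil3 and Cebpe are lower and Mmp9 and S100a6 higher in the bin of 30 to 100 than in the bin of 0 to 10 in both libraries, and Ltf is level.

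The distribution along Retnlg differed between the libraries. In the Col1a1fspKO library 23.6% (16.1 to 32.7) of S100-high cells were in the lowest bin, against 44.7% (34.9 to 54.8) in WT, and 53.6% (43.9 to 63.2) against 37.9% (28.5 to 48) in the highest. The median Retnlg was 32.3 and 12.7 per 10000 UMIs. Retnlg is used by the rule, so this is a description of the chosen cells. Because gene levels followed Retnlg, comparisons between libraries are given below also within these bins.

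Between the genotypes, few genes passed 2-fold. In all cells that met the rule 1.04% of 1823 genes were called higher in the Col1a1fspKO library and 1.15% lower, and in S100-high cells 1.04% of 1249 were called higher and 1.6% lower. The median log2 ratio over all genes was -0.05 in all cells and -0.032 in S100-high cells. These are ratios of 1 pool over another, without replicates.

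Of the genes that mark the stage, Mmp8, Mmp9, Fpr2, Ltf and Camp were close to equal, and Ly6g and Thbs1 were not. In S100-high cells the ratio of Col1a1fspKO over WT was 1.09 (0.988 to 1.2) for Mmp8, 1.15 (0.993 to 1.34) for Mmp9, 1.07 (0.839 to 1.36) for Fpr2, 0.987 (0.937 to 1.04) for Ltf and 1.04 (1.02 to 1.06) for Camp. Of the 8 secondary and 4 tertiary granule genes tested none was called, with median log2 ratios of 0.0088 and 0.093. The chemoattractant receptors, adhesion genes, NADPH oxidase subunits, cytoskeleton genes and glycolytic enzymes likewise gave no call among 6, 9, 6, 13 and 10 tested genes. Over all 1249 genes 1.04% were called higher and 1.6% lower, so an absence of calls does not set these short lists apart. Itgb2l, a secondary granule gene that encodes a beta-2 integrin-like protein, came nearest at 0.54 (0.387 to 0.747), with 59 and 111 UMIs. Within the Retnlg bins its ratio was 0.386 (0.182 to 0.748), 0.496 (0.224 to 1.05) and 0.648 (0.397 to 1.06). Ly6g was 2.16 (1.92 to 2.42) times the WT level, and Thbs1 was 0.602 (0.412 to 0.871) times, with 48 and 81 UMIs.

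Several genes passed 2-fold with and without the cells that were not S100-high. Ly6c1 had 291 UMIs in the Col1a1fspKO and 4 in the WT library, and Ly6g had 921 and 434, a ratio of 2.16 (1.92 to 2.42). The Ly6g ratio was 1.93, 2.22 and 2.35 in the 3 Retnlg bins, and 1.89 (1.73 to 2.08) in Ltf-high and 2.42 (2.1 to 2.78) in Retnlg-high neutrophils. These neighbor values, and those for the genes below, are for S100-high cells. In those sets Ly6c1 had 647 against 10 and 427 against 5 UMIs. The difference in Ly6c1 was not limited to neutrophils. Ly6c1 was found in 13 of 13 Col1a1fspKO and 0 of 15 WT S100-low cells. Before thinning, it was found in 8.75% of Col1a1fspKO and 0.459% of WT cells with Cd79a. Ly6c1 and Ly6c2 are near-identical copies, and reads may be split between them, which was not tested. Of 4 Ly6 surface antigens with enough UMIs, Ly6c1 and Ly6g were called higher and none lower. The 5 listed Ly6 antigens together stood at 4530 CPM in the Col1a1fspKO and 2429 CPM in the WT library. Cldn15, a claudin of tight junctions, had 55 UMIs in 38 of 110 Col1a1fspKO cells and 9 UMIs in 8 of 103 WT cells, a ratio of 6.21 (3.04 to 14.3), against 1.62 (1.27 to 2.07) in Ltf-high and 2.01 (1.01 to 4.34) in Retnlg-high neutrophils, a difference between sets that was not tested. Gdpd3, a lysophospholipase D, went the other way with 18 and 76 UMIs, a ratio of 0.241 (0.135 to 0.406), and was found in 16 and 50 cells. Its ratio was 0.0689, 0.455 and 0.193 in the 3 Retnlg bins, and 0.217 (0.127 to 0.351) and 0.204 (0.139 to 0.292) in Ltf-high and Retnlg-high neutrophils. H2-K1, the MHC class I heavy chain, had 73 and 29 UMIs, a ratio of 2.56 (1.64 to 4.08), and the proton channel Hvcn1 had 36 and 15, a ratio of 2.44 (1.3 to 4.79). In the bins the H2-K1 ratio was 1.35 (0.472 to 3.69), 1.52 (0.499 to 5.07) and 2.97 (1.57 to 6.09). The Hvcn1 ratio was 2.54 (1.09 to 6.11), 2.73 (0.488 to 27.6) and 4.86 (1.13 to 43.8), the last on 15 against 2 UMIs. In Ltf-high and Retnlg-high neutrophils the H2-K1 ratio was 2.2 (1.72 to 2.82) and 2.14 (1.45 to 3.25). That of Hvcn1 was 0.983 (0.741 to 1.3) and 0.76 (0.278 to 2.18), a difference between sets that was not tested.

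S100a6, which followed Retnlg, was at 2602 CPM in the Col1a1fspKO and 1575 CPM in the WT library, a ratio of 1.65 (1.5 to 1.82), and remained higher within the bins at 1.29, 1.35 and 1.58. Slpi was 1.34 (1.16 to 1.55) times in all S100-high cells and 1.41, 1.35 and 1.07 times in the bins. Chil3 was 0.799 (0.729 to 0.875) times in all S100-high cells, and in the bins 0.922, 0.598 and 1.06 times, so the lower level was largest in the middle bin, which held 18 WT cells. None of the 3 genes passed 2-fold.

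Other calls depended on a few cells. In all cells that met the rule Car2 (carbonic anhydrase 2) was 4.07 (2.77 to 6.15) times, Blvrb (biliverdin reductase B) 3.43 (2.25 to 5.37) and Prdx2 (peroxiredoxin 2) 2.88 (2.09 to 4.04) times the WT level, and 61.6%, 52.9% and 41.7% of their Col1a1fspKO UMIs lay in a single cell. These are genes of red cell precursors. In S100-high cells the ratios were 0.484 (0.203 to 1.07), 0.965 (0.487 to 1.91) and 0.457 (0.183 to 1.05). The ratio of Car2 there also depended on few cells, since 12 of its 21 WT UMIs lay in a single cell. Prtn3 (proteinase 3) had 93 UMIs in the Col1a1fspKO library, of which 87.1% were in 1 cell, and none in S100-high cells. Crip1 had 211 and 559 UMIs, a ratio of 0.368 (0.312 to 0.432), and 75.4% and 92.5% of these were outside S100-high cells. Within S100-high cells its ratio was 1.26 (0.821 to 1.94), on 52 and 42 UMIs. Of these, 38 and 30 lay in a single cell of each library. S100a4, the gene of the Cre driver, had a ratio of 0.479 (0.369 to 0.619) in all cells that met the rule. Of its UMIs 89% and 88.1% lay outside S100-high cells. In S100-high cells its ratio was 0.462 (0.195 to 1.02), on 10 and 22 UMIs, too few to be tested. These UMIs lay in 4 Col1a1fspKO and 6 WT cells, with 7 and 10 of them in a single cell of each library.

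Conversely, globin was lower in the Col1a1fspKO library among S100-high cells, with a ratio of 0.309 (0.285 to 0.335) for Hba-a1, but most WT UMIs were in the 5 cells with S100a8 plus S100a9 between 1000 and 2000 per 10000. At a limit of 2000 per 10000 the ratio was 1.15 (1.03 to 1.27), so its direction turned. At that limit Ly6c1, Cldn15, H2-K1, Hvcn1 and Ly6g stayed called higher and Gdpd3 called lower, with ratios of 5.81 (2.85 to 13.4) for Cldn15, 2.32 (1.46 to 3.78) for H2-K1, 2.28 (1.22 to 4.48) for Hvcn1 and 0.224 (0.124 to 0.385) for Gdpd3. H2afx and Tuba1b, genes of chromatin and microtubules that were called lower in S100-high cells, had ratios of 0.532 (0.256 to 1.06) and 0.507 (0.258 to 0.96) and were no longer called. In all, 19 of 1176 genes passed 2-fold at that limit, 9 higher and 10 lower, and Ifi27l2a, which was not called in the larger set, was then among the higher ones with 164 and 48 UMIs.

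**Figure D4:**
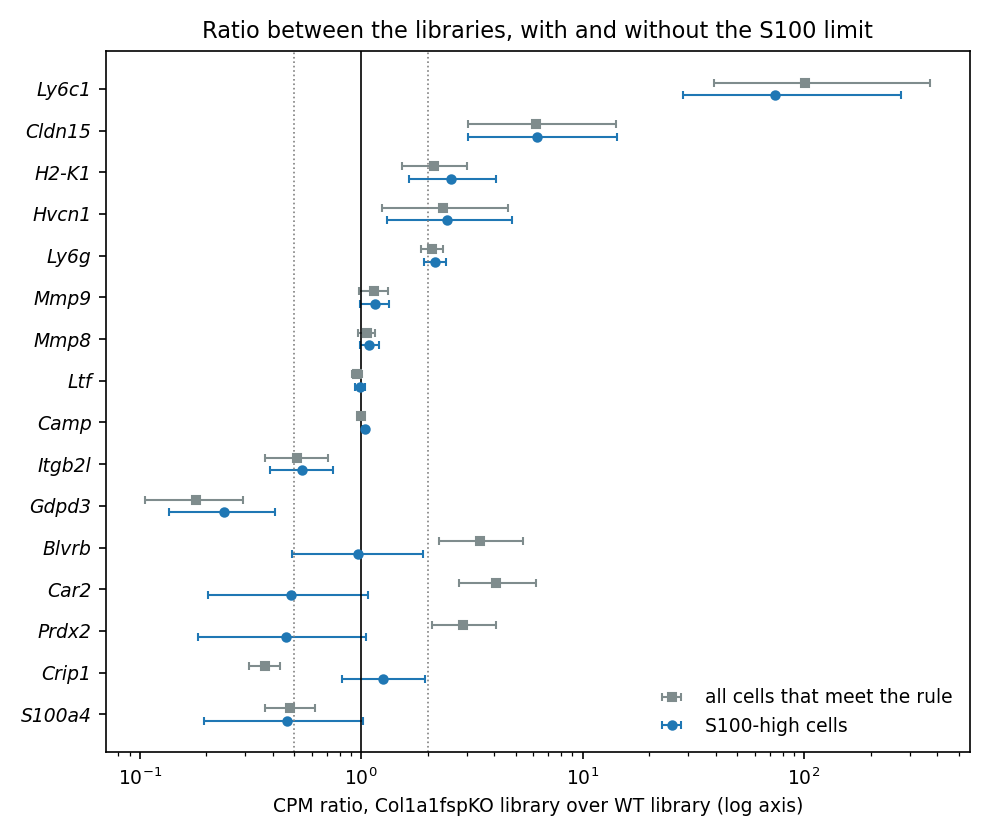
CPM ratio of the Col1a1fspKO over the WT library on a log axis for 16 genes, in all cells that met the rule (squares) and in S100-high cells (circles), with 95% counting intervals; dotted lines mark 0.5 and 2. Ly6c1, Cldn15, H2-K1, Hvcn1, Ly6g and Gdpd3 lie on the same side in both sets, whereas Blvrb, Car2, Prdx2 and Crip1 change sides.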

How the data were processed

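Marrow cells of 2 mice per genotype were pooled into 1 10x 3' library for Col1a1fspKO and 1 for WT. The deposited values were unnormalized UMI counts for each gene in each cell, made by the authors (Cell Ranger, version not given in the sources used here, build mm10; the submitters' processing notes also name Seurat 3.5.3), with low-quality cells already removed. Counts by 3' tags carry no length scaling, depth differs between cells, and no doublet caller was run.

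Cells were chosen by UMI counts of Mmp8, Retnlg and Cd79a, and the members and gene lists were chosen with earlier results of these data known. UMIs were summed per library and set of cells and scaled to CPM. Levels have exact Poisson and ratios exact binomial 95% intervals, shares have Clopper-Pearson intervals and differences of shares Newcombe intervals, all for counting error only. Genes with at least 50 UMIs over the cells compared were compared with a fold of 2 (called "tested" here), and a count of 0 entered the fold at 3 UMIs. No p-value was computed. Genes named were those of the lists and the 15 with the highest and 15 with the lowest ratio in each comparison, and genes with fewer UMIs are given by their counts; ribosomal protein genes were chosen after their values were seen. The S100 limits of 1000 and 2000 per 10000 UMIs were also set after the data were seen. Thinning drew 2500 UMIs per cell. Scripts were tested on simulated data. Alternatives changed the limits of the rule, the UMI minimum, the fold, the scaling and the Ltf minimum. Python 3.11.15, numpy 2.4.6, pandas 2.3.3, scipy 1.17.1 and matplotlib 3.10.9 were used. Promoter sequences were RefSeq entries of GRCm38.p6. Results for 1 gene are not reported here.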

Additional observations from a re-analysis of the deposited data

Results flagged for a closer look

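Some genes had opposite directions in sets of cells or libraries under the same contrast, each by at least 1.5-fold with counting intervals apart from 1. None of these differences was tested, since each rests on 1 library per genotype.

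Prtn3, a serine protease of primary granules, was 1.95 times its Ltf-high level in all cells that met the rule in the Col1a1fspKO library and 0.445 times in the WT library. All 93 Col1a1fspKO UMIs lay outside S100-high cells and 87.1% of them in 1 cell. Blvrb, of heme breakdown, was 3.43 times the WT level in the cells that met the rule and 0.533 times in Retnlg-high neutrophils, with 19 and 20 UMIs in S100-high cells.

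The monocyte gene Ms4a6c was 0.541 times the WT level in the cells that met the rule and 4.48 times in Retnlg-high neutrophils, and the cathepsin gene Ctss was 0.656 and 7.11 times. S100-low and other cells that were not S100-high held 94.1% and 92.8% of the Ms4a6c UMIs and 94.3% and 88.5% of the Ctss UMIs in the Col1a1fspKO and WT libraries, and the Retnlg-high neutrophils held 42 and 5 UMIs of Ms4a6c, of which 2 and 5 were in S100-high cells, where Ctss had 3 and 3.

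Isg15, an interferon-stimulated gene, was 0.195 times the WT level in the cells that met the rule and 2.67 times in Retnlg-high neutrophils, on 2 against 10 and 30 against 6 UMIs. Bst2, a marker of plasmacytoid dendritic cells that interferon also induces, was 0.470 times in the cells that met the rule and 5.31 times in Ltf-high neutrophils, on 14 against 29 and 22 against 5 UMIs. S100a10 was 0.630 and 2.05 times in the same sets, with 90.9% and 82.4% of its UMIs in the first set outside S100-high cells.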

How the results depend on the processing

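With a single library for each genotype none could be left out. No paired analysis was possible because each genotype had 1 library. The difference in the share of cells stayed within its counting error under all 11 alternatives, from -2.41 percentage points as a share of the cells with abundant S100a8 and S100a9 to 0.37 with Retnlg below 200.

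Counts of genes past the fold moved by over 1.5 times as follows. Between genotypes 40 genes passed, against 67 at an Mmp8 minimum of 2, 19 at the S100 limit of 2000, 248 with at least 20 UMIs, 5 with at least 200, 191 at a fold of 1.5 and 11 at a fold of 3. Over Retnlg-high neutrophils 360 passed, against 935, 228 and 143 at Mmp8 minimums of 2, 4 and 5, 91 in S100-high cells, 100 at the S100 limit of 2000, 729 and 139 with at least 20 and 200 UMIs, and 740 and 128 at folds of 1.5 and 3. Over Ltf-high neutrophils 375 passed, against 676 and 120 with at least 20 and 200 UMIs, 905 and 148 at folds of 1.5 and 3, and 204 with Ltf of at least 40. The UMI minimum and the fold set these counts by construction, and for the other settings the cause was not tested.

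The log2 ratio of the summed secondary granule genes in the highest over the lowest Retnlg bin was 0.09 in the Col1a1fspKO and 0.17 in the WT library with all cells, 0.18 and -0.0032 with thinned cells, and -0.28 and -0.18 in S100-high cells. Of 425 log2 ratios of Col1a1fspKO over WT for 43 named genes, 336 stayed within their counting error, 74 moved beyond it and 15 turned. With an Mmp8 minimum of 2, Hist1h2ap turned to 0.32 and Ngp to -0.029, and with a minimum of 5 Crip1 turned to 0.035, Ngp to -0.052 and Zeb2 to 0.28. With Retnlg below 50, Cd74 turned to -0.37 and Prtn3 to -0.010. In S100-high cells Blvrb turned to -0.051, Car2 to -1.05, Crip1 to 0.33, Prdx2 to -1.13, Ube2c to -0.093 and Zeb2 to 1.02, and at the S100 limit of 2000 Cd74 turned to -1.66 and Crip1 to 0.73.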
